A study of Rattus norvegicus with 12 samples.

Results

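The matrix metalloproteinases (MMPs), the ADAM and ADAMTS metalloproteinases and the tissue inhibitors of metalloproteinases (TIMPs) were followed in rat hippocampal cultures recovering from oxygen and glucose deprivation (OGD). Members were all rat genes with a symbol beginning with Mmp or Timp and a number, or beginning with Adam, for which an array probe could be named from its transcript accession. Of 83 such symbols in RefSeq, 58 genes had a probe, out of 15201 named genes on the array. There were 22 MMPs, 19 ADAMs, 10 ADAMTS proteases, 3 ADAMTS-like proteins and 4 TIMPs. No probe was matched to the remaining 25 symbols, which include Adam8, Adam10, Adam12 and Adam22, and these genes were not analysed here. Where a gene had several probes, as 9 genes did, the brightest was used.

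MMPs are zinc-dependent enzymes that are made as inactive precursors and cut collagens, laminins, proteoglycans and many signalling proteins outside the cell. ADAMs are mostly membrane proteins, and the catalytically active ones release the outer part of growth factors, cytokines and adhesion molecules from the cell surface. ADAMTS enzymes are secreted, and a group of them, the hyalectanases, cleaves the chondroitin sulphate proteoglycans of the brain matrix, such as aggrecan, brevican and versican. TIMPs bind the active site of these enzymes and block it. After brain ischaemia the family is known for opening the blood-brain barrier and breaking down the matrix around neurons, and also for taking part in later repair.

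The cells were primary hippocampal neurons from Wistar rat embryos (E18 per the labels), kept for 14 to 15 days in Neurobasal medium, and the dissociated cultures contain a minority of glia. OGD cultures were placed for 2 h in a glucose-free saline with 25 mM sucrose in an anaerobic chamber, while control cultures were placed in the same kind of saline with 25 mM glucose in air and CO2. Both were then returned to conditioned medium and collected after 7 h or 24 h of recovery. This gives 4 groups (Ctrl 7 h, OGD 7 h, Ctrl 24 h and OGD 24 h) of 3 replicate cultures each. The study states that 3 independent cultures served as replicates, and not whether cultures with the same number came from 1 preparation. RNA of each culture (200 ng) was labelled with Cy3 and hybridised to its own one-colour Agilent whole-genome rat array. Cultures of Ctrl and OGD with the same number lay on 1 slide, and all 7 h arrays were scanned on another day than the 24 h arrays, so that recovery time and scan day cannot be told apart. Median spot intensity was between 131 and 660 on the 12 arrays, with the lowest values on the arrays OGD 24 h replicate 1 (131) and OGD 7 h replicate 1 (234), and between 78.3% and 87.1% of spots were well above background. The 10 neuronal markers examined, among them Map2, Syt1 and Eno2, were well above background on all 12 arrays.

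Values below are log2 signals relative to the median of the same array, so that 0 is the median probe and negative values lie below it. They compare arrays for 1 probe and do not rank genes against each other. In these bulk samples, fewer cells of a type and less RNA per cell cannot be told apart. Of the 58 genes, 32 were well above background on all 12 arrays, 21 on some arrays and 5 (Mmp8, Mmp20, Mmp27, Adam32 and Adam3a) on none. No member was saturated, and 1 value was missing (Adamts19 in Ctrl 7 h replicate 3, fitted without it).

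A gene was called higher or lower after OGD where limma, fitted over all 30367 probes, gave an unadjusted p under 0.05 with a fold of at least 2. At 7 h, 3 members were called higher, where 2.08% of all probes were, and 5 members were called lower, where 1.66% of all probes were. At 24 h, 7 members were called higher, against 3.71% of all probes, and 4 were called lower, against 1.96%. No member passed an adjusted p (Benjamini-Hochberg over all probes) under 0.05 at either time, while 12 members at 7 h and 13 at 24 h had an unadjusted p under 0.05. At 7 h these were 5 higher (4.79% of all probes) and 7 lower (7.03%), and at 24 h 8 higher (7.51%) and 5 lower (6.19%). On the same values the methods' t-test gave 12 and 7 members with a p under 0.05 and also none after adjustment. The lowest adjusted p of a member was 0.141 at 7 h (Adamts1) and 0.252 at 24 h, so that each call below is a difference in these arrays which did not pass correction for the number of probes. The counts also depended on scaling and background, for the members and for all probes. In the main fit 631 probes were called higher and 505 lower at 7 h, and 1126 and 595 at 24 h. Scaling to the spike-in spots moved the median of all probes to −0.83 at 7 h and −1.01 at 24 h. It left no member higher (0 at each time), with 5 members lower at 7 h and 4 at 24 h. Over all probes it left 80 higher at 7 h and 20 at 24 h, with 269 and 522 lower. The directions given here are thus relative to the median probe. Background correction by normexp on the median spot signal, in place of the scanner's own, used an added offset of 50. It gave 7 members higher at 7 h and 0 at 24 h, and 2 lower each time. Over all probes it gave 2047 higher and 871 lower at 7 h, and 190 and 553 at 24 h. The offset weighs most on dim signals, so that this setting cannot size the change of a probe near background. With it the 7 h changes of Mmp9, Mmp28, Adam2 and Adamdec1, which the main fit called lower, were above 0. Centring on the 75th percentile gave equal numbers at 7 h (5 in each direction), where 708 of all probes were higher and 349 lower. Quantile normalization gave 7 members higher against 6 lower at 24 h, where 769 of all probes were higher and 596 lower. Without the 2 OGD arrays of low intensity (replicate 1 at each time), 4 members were higher and 6 lower at 7 h. At 24 h, 7 were higher and 1 lower (Mmp28). Over all probes 516 were then higher and 361 lower at 7 h, and 677 and 176 at 24 h.

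In all, 14 genes were called at one time or both. Mmp3 and Adamts7 were called higher at both times, and Mmp9, Mmp28 and Adam7 lower at both times, which the plot of the changes at 7 h and 24 h shows as its upper right and lower left corners. Adamts1 was called higher at 7 h, and Mmp25, Adam34, Adamts5, Adamts14 and Timp1 at 24 h. Adam2 and Adamdec1 were called lower at 7 h, and Mmp17 at 24 h. Of these 14, the study itself had listed Mmp3, Mmp9, Mmp25, Mmp28, Adam2, Adamdec1, Adamts1, Adamts5, Adamts7 and Adamts14 from the same arrays, so that their directions here are not independent evidence.

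**Figure D1:**
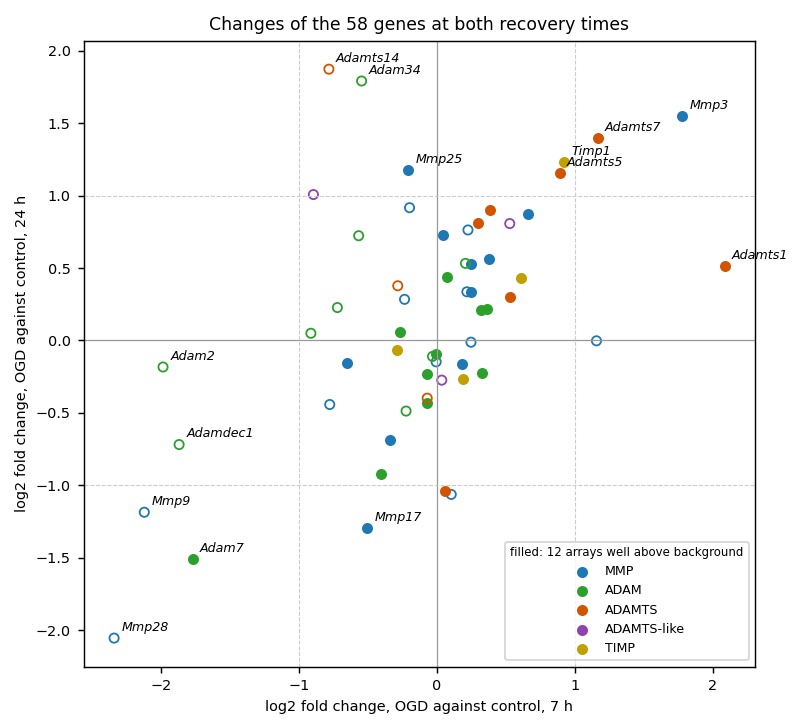
Each point is 1 of the 58 genes, placed by its log2 fold change (OGD against control) at 7 h on the x axis and at 24 h on the y axis, coloured by family; filled points were well above background on all 12 arrays, open points on fewer, and the 14 called genes are named (dashed lines mark a fold of 2). Mmp3 and Adamts7 lie to the upper right and Mmp28, Mmp9 and Adam7 to the lower left, while Adamts1 lies far to the right at 2.09 with a 24 h change of 0.51.

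The lowest adjusted p among the members belonged to Adamts1, a hyalectanase that is also known as an inhibitor of vessel growth. Its signal was 2.36, 1.91 and 2.83 in the 3 Ctrl 7 h cultures and 4.39, 4.49 and 4.48 in the OGD 7 h cultures. The groups did not overlap, and the OGD cultures lay close together. Adamts1 was 4.25-fold higher after OGD at 7 h (log2 change 2.09, SE 0.35, limma adjusted p = 0.141), and it was higher on each of the 3 slides. At 24 h the values were 2.29, 1.59 and 2.23 in Ctrl and 2.44, 1.92 and 3.28 in OGD cultures. These groups overlapped, with a log2 change of 0.51 (SE 0.35, adjusted p = 0.523).

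Adamts7, an ADAMTS protease that cleaves the matrix protein COMP, gave 3.32, 3.37 and 4.18 in Ctrl 7 h and 4.75, 4.56 and 5.06 in OGD 7 h cultures. After 24 h the signals were 2.10, 2.55 and 2.66 in Ctrl and 4.48, 3.56 and 3.46 in OGD cultures. All OGD cultures lay above all controls at both times. The log2 changes were 1.17 (SE 0.33, adjusted p = 0.270) at 7 h and 1.40 (SE 0.33, adjusted p = 0.252) at 24 h. With normexp the 7 h change was 0.58, with a p above 0.05.

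Adamts5, the hyalectanase best known for destroying aggrecan in cartilage, gave −2.04, −2.08 and −1.61 in Ctrl 7 h and −1.64, −1.32 and −0.09 in OGD 7 h cultures. The 24 h signals were −1.74, −1.83 and −1.44 in Ctrl and −0.57, −0.76 and −0.21 in OGD cultures. The groups touched at 7 h and were apart at 24 h. The log2 change was 0.89 (SE 0.35, adjusted p = 0.369), below a fold of 2, at 7 h and 1.16 (SE 0.35, adjusted p = 0.280) at 24 h. The within-slide differences of Adamts5 at 24 h were 1.18, 1.07 and 1.23.

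The other hyalectanases were not called. Adamts4, also an aggrecan-cleaving enzyme, had log2 changes of −0.28 at 7 h and 0.38 at 24 h and was not well above background on 3 of the 6 arrays at 7 h. Adamts9 lay between 3.08 and 3.11 in Ctrl 7 h and between 3.57 and 3.73 in OGD 7 h cultures, without overlap, but its log2 change of 0.53 had adjusted p = 0.608. Adamts15 had log2 changes of 0.30 and 0.81, and a dimmer probe of the same gene gave −0.57 (adjusted p = 0.352) at 7 h, against the sign of the brighter one. Over the 5 hyalectanases the median log2 change was 0.53 at 7 h and 0.51 at 24 h, with 4 and 5 of them above 0, where the median of all probes was −0.06 and 0.01.

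Of the other ADAMTS proteases, Adamts14, a procollagen N-proteinase, was called higher at 24 h with −6.09, −6.48 and −6.89 in Ctrl and −4.13, −4.82 and −4.89 in OGD cultures (adjusted p = 0.272). Only 1 of these 6 arrays had it well above background, so that no fold is given. Adamts12 was well above background on all arrays, and its OGD 24 h cultures (−0.92, −1.15 and −1.09) lay above its controls (−2.59, −2.06 and −1.21) with adjusted p = 0.463. Adamts18 gave −1.73 in OGD 24 h replicate 1 against 0.61 and 0.40 in the other two cultures, and was not called (−1.04, adjusted p = 0.425). In the ADAMTS family as a whole, 2 of 10 genes were called higher at 7 h and 3 at 24 h, with none lower. Of all probes, 2.08% and 3.71% were called higher and 1.66% and 1.96% lower. The median log2 change of the family was 0.34 and 0.66. The 3 ADAMTS-like proteins, which have no protease domain, were dim on at least some arrays and none was called.

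**Figure D2:**
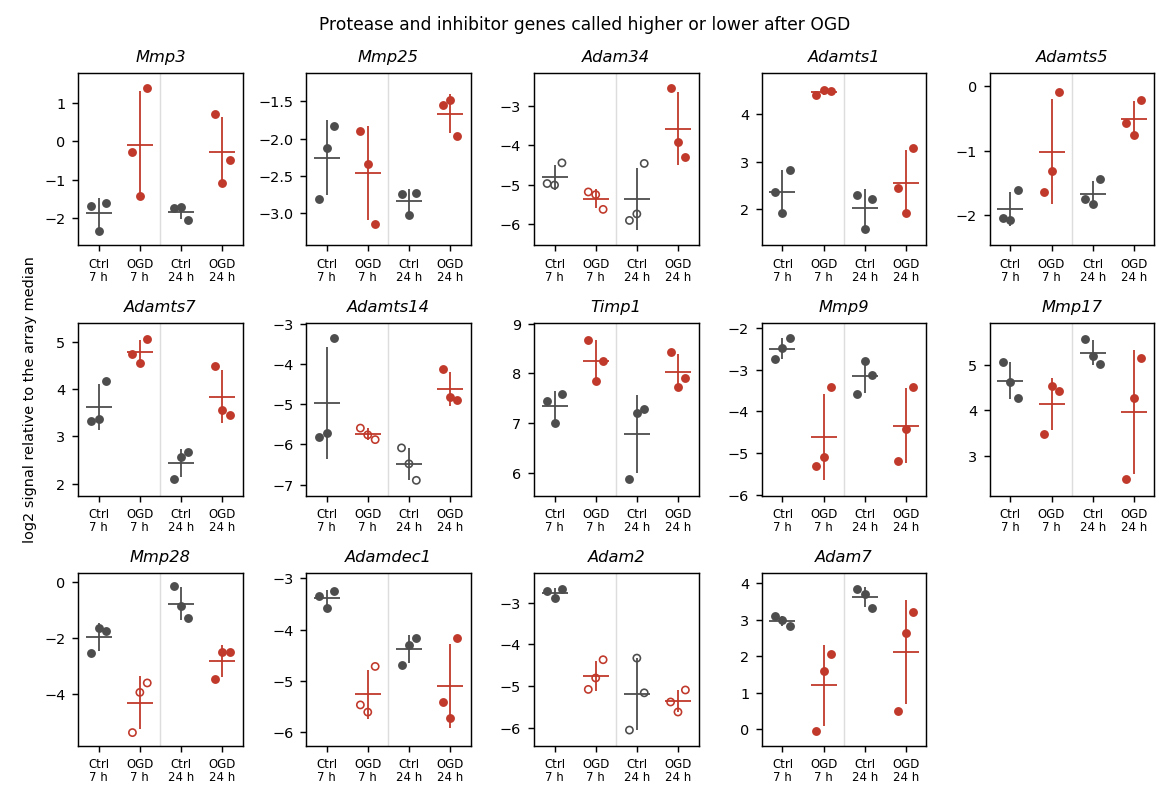
Log2 signal relative to the array median (y axis) of the 14 called genes in the 4 groups of 3 cultures; points are single arrays, horizontal bars the group means, vertical bars the SD (n = 3), and open points mark groups in which no array had the gene well above background. The 3 OGD 7 h points of Adamts1 coincide near 4.45 above their controls, and the 24 h OGD points of Mmp17, Adam7 and Mmp3 are spread widely, with replicate 1 (left) farthest from the controls.

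Among the MMPs, Mmp3 (stromelysin-1), which cuts proteoglycans and laminin and also activates other MMP precursors, was higher in every OGD culture than in any control of its time. Its signal was −1.69, −2.33 and −1.62 in Ctrl 7 h and −0.27, −1.42 and 1.40 in OGD 7 h cultures. After 24 h the signals were −1.74, −1.71 and −2.07 in Ctrl and 0.71, −1.09 and −0.49 in OGD cultures. The controls were close together and the OGD cultures ranged widely. The log2 change was 1.78 (SE 0.63, adjusted p = 0.331) at 7 h and 1.55 (SE 0.63, adjusted p = 0.332) at 24 h. Without OGD 7 h replicate 3 the 7 h change was 1.03, and without OGD 24 h replicate 1 the 24 h change was 1.05, neither with a p under 0.05. The p also rose above 0.05 at 7 h without Ctrl 7 h replicate 2 (1.55), and at 24 h without any 1 Ctrl 24 h culture (1.44 to 1.61) or OGD 24 h replicate 3 (1.65).

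Mmp3 belongs to a row of MMP genes on rat chromosome 8, several of which are classic targets of the transcription factor AP-1. In the RefSeq promoter table, 10 MMP genes lie on this chromosome, and the AP-1 motif TGACTCA (or TGAGTCA, its reverse complement) was found in the 250 bases before the start of 6 of them, namely Mmp1, Mmp3, Mmp7, Mmp10, Mmp12 and Mmp13. Among all promoters of that table, 1093 of 27457 (3.98%) hold this motif on either strand, and of the 39 members that have a promoter there 7 do (17.9%), the remaining one being Adam19. The 150 bases before the start are shown for 4 of these genes, which carry the motif on one strand or the other. They include Mmp3, which was called, and 3 genes that were not. Mmp7 and Mmp12, not shown, carry it at like distances (80 and 87 bases before the start). Capitals mark the motif, and coordinates are on GRCr8 (RefSeq).
Mmp3 (chr8:12925131-12925280, plus strand): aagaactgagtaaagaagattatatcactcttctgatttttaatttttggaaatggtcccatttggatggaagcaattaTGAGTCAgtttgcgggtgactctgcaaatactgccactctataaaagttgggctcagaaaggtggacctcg
Mmp10 (chr8:12974557-12974706, plus strand): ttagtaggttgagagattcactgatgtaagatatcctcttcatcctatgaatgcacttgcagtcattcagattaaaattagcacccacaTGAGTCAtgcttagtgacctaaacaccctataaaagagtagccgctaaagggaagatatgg
Mmp1 (chr8:12943303-12943452, plus strand): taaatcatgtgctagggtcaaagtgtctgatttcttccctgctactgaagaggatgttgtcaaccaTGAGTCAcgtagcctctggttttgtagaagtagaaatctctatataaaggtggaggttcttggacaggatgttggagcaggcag
Mmp13 (chr8:12782679-12782828, plus strand): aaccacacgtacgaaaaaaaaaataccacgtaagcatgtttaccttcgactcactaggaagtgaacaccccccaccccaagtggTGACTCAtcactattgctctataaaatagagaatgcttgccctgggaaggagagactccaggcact
The motif begins 71 bases before the start in Mmp3, 61 in Mmp10, 84 in Mmp1 and 66 in Mmp13. Mmp3 was the only one of the 7 members with the motif that was called. Mmp13, a collagenase, was well above background on all arrays and had log2 changes of 0.25 (SE 0.35, adjusted p = 0.813) and 0.34 (SE 0.35, adjusted p = 0.676). Mmp1, also a collagenase, lay below its controls at 7 h without being called, with −2.67, −2.63 and −2.26 in Ctrl and −3.64, −3.01 and −3.24 in OGD cultures (log2 change −0.78, SE 0.34, adjusted p = 0.409). Mmp10, the second stromelysin, was well above background on 1 array, Mmp7 (matrilysin) on 1 and Mmp12 (macrophage elastase) on 2.

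Of the gelatinases, which digest denatured collagen and the collagen of basement membranes, Mmp9 was called lower at both times and Mmp2 was not called. Mmp9 gave −2.75, −2.48 and −2.25 in Ctrl 7 h and −5.33, −5.09 and −3.42 in OGD 7 h cultures, and only 1 of the 3 OGD arrays had it well above background. At 24 h it gave −3.58, −2.78 and −3.12 in Ctrl and −5.20, −4.43 and −3.41 in OGD cultures, with 2 OGD arrays well above background. The groups were apart at 7 h and overlapped at 24 h. The log2 changes were −2.12 (SE 0.53, adjusted p = 0.254) and −1.19 (SE 0.53, adjusted p = 0.362), and the latter was −0.76 without OGD 24 h replicate 1, with the 24 h call lost on leaving out 8 of the 12 arrays in turn. Normexp turned the changes of Mmp9 to 0.27 at both times. Mmp2 had log2 changes of 0.66 (SE 0.70) and 0.87 (SE 0.70), and its controls ranged from 2.39 to 4.22 at 7 h and from 2.67 to 4.58 at 24 h, so that changes of this size were within the spread. Within slides, however, Mmp2 was higher after OGD in every pair (by 0.17, 1.24 and 0.57 at 7 h and by at least 0.70 at 24 h), and the fit with the replicate number as a block gave it a p under 0.05 at both times. The difference between Mmp2 and Mmp9 was not tested.

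Mmp28 (epilysin), an MMP known from skin and testis and also found in brain, was lower at both times. Its signal was −2.51, −1.63 and −1.72 in Ctrl 7 h and −5.36, −3.93 and −3.59 in OGD 7 h cultures, none of the latter well above background. At 24 h it was −0.12, −0.86 and −1.29 in Ctrl and −3.46, −2.48 and −2.50 in OGD cultures, with 2 of the OGD arrays well above background. The groups were apart at both times. Mmp28 was at least 3.18-fold lower at 7 h (adjusted p = 0.196) and 4.16-fold lower at 24 h (log2 change −2.05, SE 0.49, adjusted p = 0.252). The 7 h bound took, for each OGD array, the lowest signal of any probe that counted as well above background there. Where the signal of Mmp28 itself was higher, that was taken, as on replicate 3 (−3.59 against −3.78). With normexp the 7 h change of Mmp28 was 0.12.

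The 6 membrane-anchored MMPs with a probe were all well above background on all 12 arrays and 2 of them were called at 24 h, Mmp25 higher and Mmp17 lower. Of all probes, 3.71% were called higher and 1.96% lower at 24 h. Mmp25 (MT6-MMP), known from leukocytes, gave −2.75, −3.03 and −2.74 in Ctrl 24 h and −1.54, −1.48 and −1.97 in OGD 24 h cultures. All OGD cultures lay above all controls, with a log2 change of 1.18 (SE 0.34, adjusted p = 0.269); with normexp it was 0.67, with a p above 0.05. At 7 h its groups overlapped (−0.21, SE 0.34, adjusted p = 0.840).

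Mmp17 (MT4-MMP), which is abundant in brain and activates ADAMTS4, gave 5.56, 5.20 and 5.02 in Ctrl 24 h and 2.49, 4.26 and 5.15 in OGD 24 h cultures. The groups overlapped through OGD replicate 3. The log2 change was −1.29 (SE 0.56, adjusted p = 0.354). A second, dimmer probe, also well above background on all 12 arrays, gave −1.79 (SE 0.55, adjusted p = 0.281) without overlap. At 7 h the brighter probe gave −0.50 (adjusted p = 0.746) with overlap and the dimmer one −1.09 (adjusted p = 0.471) without. For the brighter probe the 24 h change was −0.56 without OGD 24 h replicate 1, with a p above 0.05. Its p at 24 h was also above 0.05 on leaving out most other single arrays.

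Mmp24 (MT5-MMP), the neuronal member of this group, was not called, with log2 changes of −0.34 (SE 0.33, adjusted p = 0.711) and −0.69 (SE 0.33, adjusted p = 0.387). Mmp14 (MT1-MMP), the activator of the Mmp2 precursor, was higher in every OGD culture than in any control at both times. It gave 5.57, 5.39 and 5.45 in Ctrl 7 h against 5.76, 5.65 and 6.14 in OGD 7 h cultures, and 4.81, 5.21 and 5.28 in Ctrl 24 h against 5.36, 5.67 and 5.96 in OGD 24 h cultures. Its log2 changes of 0.37 (SE 0.22, adjusted p = 0.507) and 0.56 (SE 0.22, adjusted p = 0.316) stayed below a fold of 2. Scaling to the spike-in spots turned them to −0.40 and −0.46, and normexp turned the 7 h change to −0.19. Mmp15 and Mmp16 were not called. Over the 22 MMPs the median log2 change was 0.07 at 7 h and 0.14 at 24 h. Of these genes 1 was called higher at 7 h and 2 at 24 h (2.08% and 3.71% of all probes). Called lower were 2 and 3 of them (1.66% and 1.96% of all probes).

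**Figure D3:**
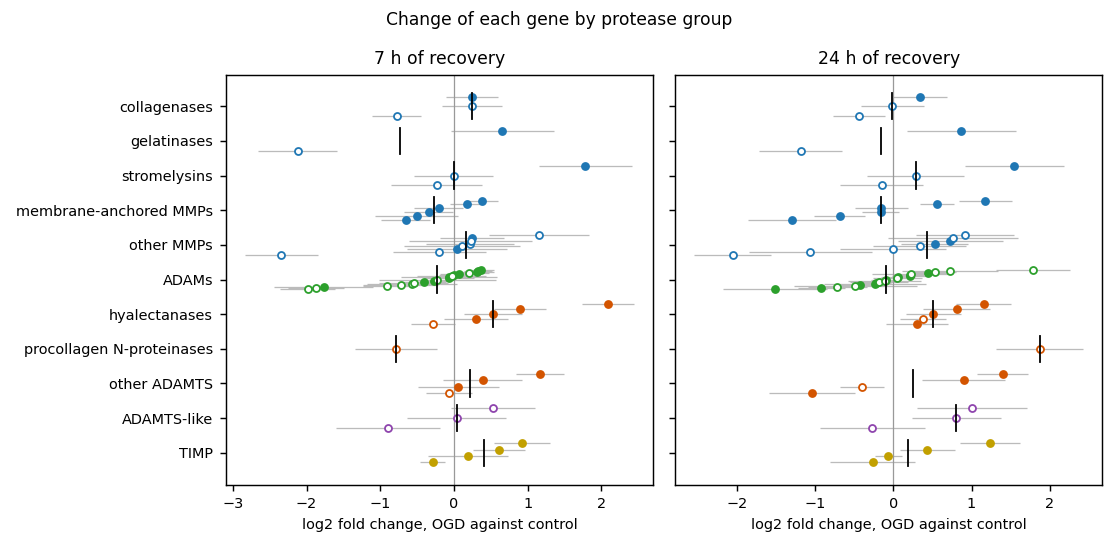
Log2 fold change, OGD against control, of each gene (x axis) at 7 h (left) and 24 h (right), by protease group (y axis); points are genes, grey bars the standard error of the fit, black lines the group medians, and filled points genes well above background on all 12 arrays. The 5 hyalectanases have a median of 0.53 at 7 h and 0.51 at 24 h, and the 19 ADAMs medians of −0.22 and −0.09.

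The ADAM sheddases with a probe showed no called change. Adam17, the enzyme that releases tumour necrosis factor and several growth factors from cells, had log2 changes of 0.07 (SE 0.26, adjusted p = 0.918) and 0.44 (SE 0.26, adjusted p = 0.462). Adam9 had −0.07 and −0.23 (SE 0.65 at both times), and its OGD 24 h cultures ranged from −0.85 to 2.31. Adam15 and Adam19 were not called either.

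The catalytically inactive neuronal ADAMs Adam11 and Adam23 were measured on all arrays. Adam11, a partner of potassium channels at synapses, gave −0.66, −0.92 and −1.09 in Ctrl 24 h and −1.81, −1.23 and −2.40 in OGD 24 h cultures. All OGD cultures were below all controls, with a log2 change of −0.92 (SE 0.30, adjusted p = 0.290), which is under a fold of 2, and the change at 7 h was −0.41 (SE 0.30, adjusted p = 0.604). Adam23, a receptor of the secreted synaptic protein Lgi1, had log2 changes of 0.33 (SE 0.19, adjusted p = 0.505) and −0.22 (SE 0.19, adjusted p = 0.594).

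Adam7, a gene known from the epididymis, was well above background on all 12 arrays and lower after OGD at both times. It gave 3.10, 2.99 and 2.83 in Ctrl 7 h and −0.05, 1.59 and 2.07 in OGD 7 h cultures. At 24 h it gave 3.85, 3.70 and 3.33 in Ctrl and 0.50, 2.63 and 3.23 in OGD cultures. The groups were apart at both times, but replicate 1 of each OGD group, the array of low intensity, was far below the other OGD cultures. The log2 changes were −1.77 (SE 0.67, adjusted p = 0.352) and −1.51 (SE 0.67, adjusted p = 0.356). Without OGD 7 h replicate 1 the 7 h change was −1.14, and without OGD 24 h replicate 1 the 24 h change was −0.70, both with a p above 0.05. The p was also above 0.05 at 7 h without Ctrl 7 h replicate 1 (−1.71) and at 24 h on leaving out most other single arrays.

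The remaining calls among the ADAMs concerned dim probes. Adam2 (fertilin beta), a sperm protein, gave −2.72, −2.89 and −2.68 in Ctrl 7 h cultures and between −5.08 and −4.37 in OGD 7 h cultures, where no array had it well above background. It was at least 1.89-fold lower (adjusted p = 0.175), and at 24 h no array of either group had it well above background. Adamdec1, an ADAM-like protease of macrophages and dendritic cells, gave −3.35, −3.57 and −3.25 in Ctrl 7 h and −5.46, −5.60 and −4.72 in OGD 7 h cultures, none of the latter well above background, and was at least 1.23-fold lower (adjusted p = 0.193). A second, dimmer probe of Adamdec1, well above background on no array, gave −0.54 at 7 h (adjusted p = 0.793), with overlap of the groups. With normexp the 7 h changes of Adam2 and Adamdec1 were 0.41 and 0.54. Adam34, a testis gene, was well above background on the 3 OGD 24 h arrays alone, with −2.54, −3.91 and −4.29 against −5.91, −5.74 and −4.46 in Ctrl 24 h, and was at least 1.68-fold higher (adjusted p = 0.262); a second, dimmer probe of Adam34 gave 0.02. Over the 19 ADAMs, 5 had a log2 change above 0 at 7 h and 9 at 24 h, with medians of −0.22 and −0.09.

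All 4 TIMPs were well above background on all arrays, and of these Timp1 was called. Timp1, the inducible inhibitor that astrocytes make after injury, gave 7.43, 6.99 and 7.57 in Ctrl 7 h and 8.68, 7.84 and 8.25 in OGD 7 h cultures. At 24 h it gave 5.88, 7.20 and 7.28 in Ctrl and 8.44, 7.72 and 7.90 in OGD cultures. All OGD cultures lay above all controls at both times. The log2 change was 0.92 (SE 0.38, adjusted p = 0.391), below a fold of 2, at 7 h and 1.23 (SE 0.38, adjusted p = 0.284) at 24 h, where normexp gave 0.80 with a p above 0.05. Without Ctrl 24 h replicate 1, the lowest control, the 24 h change was 0.78, below a fold of 2. The within-slide differences of Timp1 at 24 h were 2.56, 0.52 and 0.62.

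Timp2, the inhibitor that also helps MT1-MMP to activate Mmp2, gave 7.48, 7.53 and 7.35 in Ctrl 7 h and 7.03, 7.23 and 7.23 in OGD 7 h cultures, a log2 change of −0.29 (SE 0.17, adjusted p = 0.515) without overlap. At 24 h its change was −0.07 (SE 0.17). Timp3, the matrix-bound inhibitor that also blocks Adam17 and the aggrecan-cleaving ADAMTS enzymes, had log2 changes of 0.61 (SE 0.35, adjusted p = 0.505) and 0.43 (SE 0.35, adjusted p = 0.581), which the spike-in scaling turned to −0.17 and −0.59. Timp4 had 0.19 and −0.27 (SE 0.54 at both times), with a single low value of 1.59 in OGD 24 h replicate 1 against 3.90 and 3.81 in the other two cultures.

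**Figure D4:**
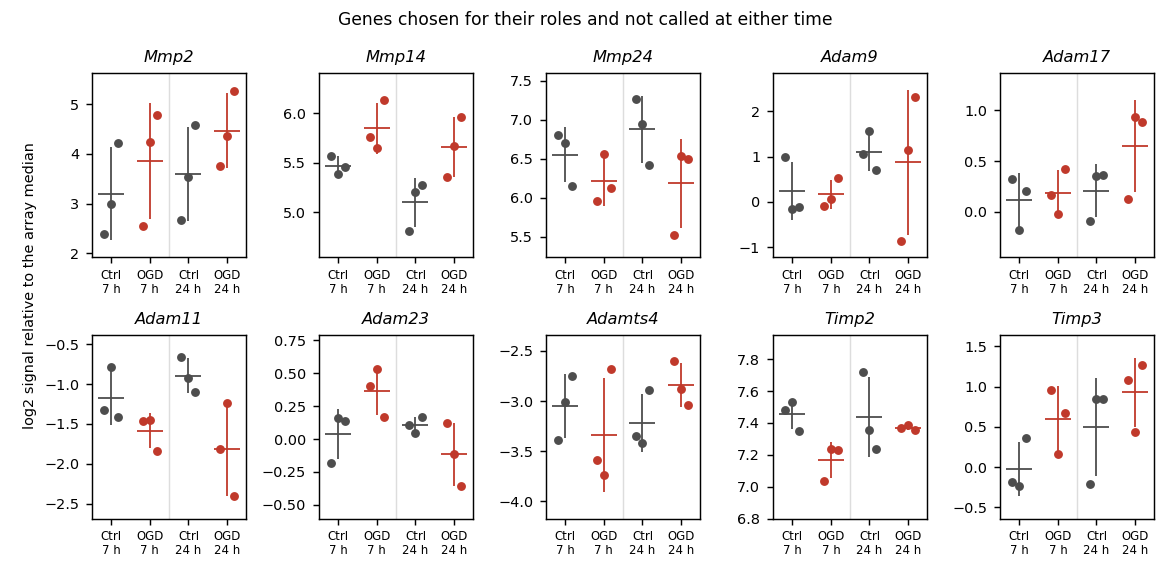
Log2 signal relative to the array median (y axis) of 10 genes chosen for their roles and called at neither time, in the 4 groups of 3 cultures; points are single arrays, horizontal bars the group means, vertical bars the SD (n = 3). Mmp14 has all OGD points above all control points at both times, Adam11 has all OGD points below the controls, and Mmp2 is spread over about as wide a range within groups as between them.

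Beyond the calls, 8 members at 7 h had all OGD cultures above all controls, against 10.6% of all probes, and 11 of 57 had them all below, against 15.5% of all probes. At 24 h these counts were 10 (10.9% of all probes) and 3 (7.02% of all probes). The 32 genes well above background on all arrays had a median log2 change of 0.22 at 7 h and 0.26 at 24 h. The change at 24 h differed from the change at 7 h with an unadjusted p under 0.05 in 5 members (Mmp25, Adam2, Adam34, Adamts1 and Adamts14), against 3.58% of all probes, and in none after adjustment.

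Plasmin is one of the proteases that activate MMP precursors outside the cell. All 7 genes of the plasmin system considered here had a probe, and 2 were called higher at both times. Of all probes, 2.08% at 7 h and 3.71% at 24 h were called higher, and 1.66% and 1.96% lower. The same shares stand beside the calls in the lists of partners, substrates and cell type markers below. Plau (urokinase), which makes plasmin, had log2 changes of 2.25 (SE 0.62, adjusted p = 0.270) and 3.18 (SE 0.62, adjusted p = 0.252). Its receptor Plaur had 1.29 (adjusted p = 0.389) and 1.60 (adjusted p = 0.290). Plat (tissue plasminogen activator) had 0.56 (adjusted p = 0.411) and 0.40, below a fold of 2. Serpini1 (neuroserpin), the neuronal inhibitor of Plat, was called lower at 24 h (−1.33, SE 0.45, adjusted p = 0.294). Without OGD 24 h replicate 1, the array of lowest intensity, the 24 h changes of Plaur and Serpini1 were 0.85 and −0.70 and no longer called, and the 7 h call of Plaur was lost on leaving out 4 of the 12 arrays in turn (1.04 to 1.34). The calls of Plau were kept on leaving out each array.

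Of 17 listed partners of these proteases, such as activators, other inhibitors and the tetraspanins that carry Adam10, 15 had a probe. Tfpi2, a secreted inhibitor of plasmin and of some MMPs, was called higher at both times, with a log2 change of 2.83 (SE 0.88, adjusted p = 0.282) at 7 h. At 24 h no control array had Tfpi2 well above background, and it was at least 8.13-fold higher (adjusted p = 0.252). Lgi1, the ligand of Adam23 and Adam22, gave 3.85, 3.68 and 3.27 in Ctrl 24 h and −0.60, 2.86 and 3.29 in OGD 24 h cultures and was called lower (−1.75, SE 0.79, adjusted p = 0.362). These groups overlapped, the change was −0.53 without OGD 24 h replicate 1, and the call was lost on leaving out 10 of the 12 arrays in turn. The other partners were not called at either time.

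All 21 listed substrates had a probe well above background on all arrays. Hbegf, a growth factor that ADAMs release from the membrane, was called higher at both times (1.33, adjusted p = 0.393, and 1.53, adjusted p = 0.310), and Cd44, a hyaluronan receptor that MT1-MMP cuts, at 24 h (1.61, SE 0.36, adjusted p = 0.252). Aggrecan (Acan), the hyalectanase substrate of perineuronal nets, was called lower at 7 h (−1.49, SE 0.37, adjusted p = 0.253) and had −0.72 (adjusted p = 0.411) at 24 h. Hapln1, which ties such proteoglycans to hyaluronan, and the adhesion molecule L1cam were called lower at 24 h (−1.27, adjusted p = 0.269, and −1.09, adjusted p = 0.290). Without OGD 24 h replicate 1 the 24 h changes of Hbegf (0.72), Hapln1 (−0.96) and L1cam (−0.79) were no longer called, L1cam also lost its call without OGD 24 h replicate 3 (−0.97), and the 7 h call of Hbegf was lost on leaving out 5 of the 12 arrays in turn (1.13 to 1.43). Brevican (Bcan), neurocan (Ncan) and versican (Vcan) were not called at either time.

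Markers of cell types moved beside these results. Of 10 neuronal markers, 8 had a log2 change below 0 at 7 h and all 10 at 24 h (medians −0.31 and −0.58), with Eno2 called lower at 7 h and Eno2 and Syt1 at 24 h. The Syt1 call was lost without OGD 24 h replicate 1 (−0.94), and each Eno2 call on leaving out 2 of the 12 arrays in turn (−0.95 and −0.98 at 7 h, −0.93 and −0.80 at 24 h). The summed signal of the neuronal markers, in multiples of the array median, was 512 to 689 in Ctrl 7 h and 506 to 690 in OGD 7 h cultures, and 551 to 729 in Ctrl 24 h and 304 to 547 in OGD 24 h cultures, the lowest being that of replicate 1. All 8 astrocyte markers with a probe were above 0 at 7 h and 2 at 24 h, and none was called; their summed signal was 918 to 1047 in Ctrl 7 h and 1146 to 1461 in OGD 7 h cultures, and 974 to 1160 in Ctrl 24 h and 917 to 1218 in OGD 24 h cultures. Of 9 microglial markers Cx3cr1 alone was called (higher at 7 h, a call lost on leaving out 4 of the 12 arrays in turn), with sums of 12.3 to 14.5 in Ctrl 7 h and 14.1 to 24.4 in OGD 7 h cultures, and of 19.1 to 23.3 in Ctrl 24 h and 21.9 to 31.9 in OGD 24 h cultures. At 7 h, 4 microglial markers had a log2 change above 0 and 5 below (median −0.05). At 24 h, 8 were above 0 and 1 below (median 0.23). In the list of vascular cells and fibroblasts Cldn5 was called lower at 7 h and Pdgfrb higher at 24 h (0.97 and not called without Ctrl 24 h replicate 1), with sums of 40.7 to 130 in Ctrl 7 h and 57.0 to 172 in OGD 7 h cultures, and of 35.2 to 120 in Ctrl 24 h and 110 to 183 in OGD 24 h cultures. Most single markers of this list did not rise with the sums. At 7 h, 4 had a log2 change above 0 and 6 below (median −0.38), and at 24 h 5 were above and 5 below (median 0.03). Among oligodendrocyte lineage markers Cspg4 was called lower at 7 h, but not without OGD 7 h replicate 1 (−0.59) or Ctrl 7 h replicate 2 (−0.94). Of these markers 3 were above 0 and 7 below at 7 h (median −0.15), and 6 above and 4 below at 24 h (median 0.07). Their sums were 219 to 229 in Ctrl 7 h and 115 to 256 in OGD 7 h cultures. At 24 h they were 260 to 358 in Ctrl and 298 to 489 in OGD cultures. In none of these lists was a marker with a probe below background on all control arrays. The part of these shifts in the changes of Mmp17, Adam11, Mmp28, Timp1 or any other member was not tested.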

How the data were processed

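In all, 12 one-colour Agilent arrays were analysed, 3 per group, grouped by the labels. Per the file headers, the authors' scanner files were made with Feature Extraction 10.5.1.1; the deposited processed intensity is background-corrected on a linear scale. The authors also deposited a log2 table, which equals these log2 intensities plus a constant per array. Spots flagged as outliers were dropped, spots of a probe averaged, and the array median subtracted on the log2 scale. Of 30367 probes, 18004 were named through RefSeq accessions, 64 through accession and symbol pairs of the study's tables (3 members) and 12299 not at all. The 4 groups were fitted together in limma 3.58.1 (R 4.3.3), tested on simulated data, with Benjamini-Hochberg adjustment over all probes and no block. The members, lists and named genes (called members, the genes listed by the study and main enzymes and inhibitors by role) were chosen with earlier results of these data known; 1 listed gene is not reported here. Over all probes, Ctrl and OGD cultures with the same number, which share a slide, did not deviate together (correlations between −0.05 and 0.17). They were not paired in the fit. Such a correlation cannot exclude pairing for single genes, and Mmp2 rose from replicate 1 to replicate 3 in all 4 groups. Same-numbered cultures of 1 treatment at the 2 times correlated at 0.21 to 0.52 in OGD and 0.04 to 0.26 in Ctrl. Alternatives were the 75th percentile, quantile and spike-in scaling, normexp, a filter on dim probes, the authors' values, the methods' t-test, 1 time alone, blocks, probe means and left-out arrays. Array probe and protein sequences were not used here, and a split of the ADAMs by a zinc-binding motif was therefore not made. Precision is limited by the number of arrays.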

Additional observations from a re-analysis of the deposited data

Results flagged for a closer look

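The change after OGD differed between the recovery times, by limma's test of the difference with an unadjusted p under 0.05, in 5 genes, and in each the adjusted p was 1.00. In Adamts1 the change at 24 h minus that at 7 h was −1.58 on the log2 scale (SE 0.50, adjusted p = 1.00), with the gene well above background on all 12 arrays. In Mmp25 it was 1.39 (SE 0.48, adjusted p = 1.00), also on probes well above background throughout. The values of Adam2 (1.80, adjusted p = 1.00), Adam34 (2.34, adjusted p = 1.00) and Adamts14 (2.66, adjusted p = 1.00) are fitted differences that rest on groups with no array well above background, and are not measured sizes. Recovery time and scan day cannot be told apart in these 5 differences.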

How the results depend on the processing

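Counts of called members that changed by over 1.5 times, against 3 higher and 5 lower at 7 h, 7 higher and 4 lower at 24 h and 5 that differed between times, were as follows. Higher at 7 h numbered 5 with the 75th percentile, 0 with spike-in scaling and 7 with normexp, lower at 7 h 2 with normexp, and higher at 24 h 0 with spike-in scaling and with normexp. Lower at 24 h numbered 2 with normexp, 1 with the methods' t-test and 2 with 1 time fitted alone. It was 1 without both low-intensity OGD arrays (chosen after seeing the data, as was normexp on this signal). Over all probes, lower at 24 h numbered 553, 95, 329 and 176 in that order, against 595 in the main fit. Members that differed between times numbered 0 with spike-in scaling and with normexp. Leaving out 1 array gave 2 to 6 higher at 7 h (5 without Ctrl 7 h replicate 3 and 6 without OGD 7 h replicate 2), 1 to 6 lower at 24 h (1 without OGD 24 h replicate 1, 1 without Ctrl 7 h replicate 1 or 2 or OGD 7 h replicate 2, and 2 without Ctrl 7 h replicate 3 or any 1 Ctrl 24 h array) and 5 to 12 that differed (9 without OGD 7 h replicate 3 and 12 without OGD 24 h replicate 1). Ctrl and OGD cultures with the same number were not shown to be paired (−0.05 to 0.17), while those of 1 treatment at both times correlated at 0.21 to 0.52 in OGD. With the replicate block within slides the counts were 3, 5, 7, 3 and 6, Mmp17 and Adam7 at 24 h no longer had a p under 0.05, and Mmp2 had one at both times. With 1 replicate block over both times (chosen after seeing the data) the counts were 3, 5, 7, 4 and 6, with Mmp12 in place of Mmp17 at 24 h. With treatment and number as a random block over both times (also chosen after seeing the data) they were 3, 5, 7, 4 and 9, so that Adamdec1, Adam23, Adam32 and Adamtsl3 were added to the 5 that differed between times.

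Signs turned as follows, in called genes and in genes that were not called. Mmp9, Mmp28, Adam2 and Adamdec1, all called lower at 7 h, had changes above 0 at 7 h with normexp. With spike-in scaling Mmp2 was −0.12 and −0.15 (7 h and 24 h), Mmp14 −0.40 and −0.46, Adam17 −0.71 and −0.59, Timp3 −0.17 and −0.59, Adam23 −0.45 and Timp4 −0.59 at 7 h, and Adamts1 −0.51 and Adamts4 −0.65 at 24 h. With normexp Mmp9 was 0.27 at both times, Adamdec1 0.54 and 0.43, Adam2 0.41 and 0.49, Mmp14 −0.19, Mmp25 0.51, Mmp28 0.12, Adam11 0.18, Adam34 0.87, Adamts4 0.60, Adamts14 0.86 and Timp4 −0.25 at 7 h, and Adam9 0.019 at 24 h. The 75th percentile gave Adam9 0.045 at 7 h and Timp2 0.045 at 24 h, and without both low-intensity OGD arrays Adam9 was 0.060 and 0.63, and Timp4 0.49 at 24 h. Leaving out 1 array gave ranges across 0 for Mmp25 (−0.49 to 0.135), Adam9 (−0.27 to 0.30), Adam17 (−0.077 to 0.18) and Adamts14 (−1.21 to 0.020) at 7 h, and for Adam2 (−0.62 to 0.24), Adam9 (−0.95 to 0.63), Timp2 (−0.17 to 0.074) and Timp4 (−0.67 to 0.49) at 24 h. Normexp, with its added offset of 50, cannot size the change of a probe near background. The cause of the turned signs was not tested. Groups of 3 arrays, and signals not well above background on some arrays (21 members) or on any (5 members), limit what can be told from these data.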

Other observations

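In the RefSeq annotation of GRCr8, 3 TIMP genes overlap a synapsin gene, Timp1 lying with Syn1, Timp4 with Syn2 and Timp3 with Syn3. Syn1, a protein of synaptic vesicles, had log2 changes of −0.74 (SE 0.36, adjusted p = 0.458) at 7 h and −1.26 (SE 0.36, adjusted p = 0.269) at 24 h, where Timp1 had 0.92 and 1.23. Syn2 had 0.13 (SE 0.24) and −0.90 (SE 0.24, adjusted p = 0.265), where Timp4 had 0.19 and −0.27. Syn3 had −0.34 and 0.26 (SE 0.34 at both times), where Timp3 had 0.61 and 0.43. The 2 genes of a pair were measured by separate probes, and the difference between them was not tested.

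Adam7 lies between Adamdec1 and the neurofilament genes Nefm and Nefl in the same annotation. Nefl had log2 changes of −0.81 (adjusted p = 0.431) and −0.87 (adjusted p = 0.351) and Nefm −0.65 and −0.77. In both genes OGD 24 h replicate 1 was the lowest of the 3 OGD cultures, as it was in Adam7 and in Syn1, which overlaps Timp1. In Adamdec1, dim on most of these arrays, replicate 2 was the lowest (−5.41, −5.72 and −4.17). Over the 12 arrays Syn1 correlated with Adam7 at 0.91, Nefl at 0.86 and Nefm at 0.79. Among all probes these correlations ranked 768, 1683 and 3149.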
